A study of Mus musculus with 4 samples.

Results

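Ribosome-poor microglia were a small set of sorted brain cells with few transcripts of ribosomal proteins. They were chosen by a measured value: among cells with at least 400 detected genes and at most 10% of unique molecular identifiers (UMIs, one per captured transcript) in mitochondrial genes, they had fewer than 3% of all UMIs in genes whose symbol begins with Rpl or Rps and a digit. This rule covered 109 genes of the gene table, among them 16 pseudogenes and 10 kinase genes that share the Rps prefix. It selected 187 of 13002 kept cells. Against cells of the same libraries with 5% to 10% of UMIs in these genes and the same number of UMIs, the 187 cells held less of the transcripts read in the cytosol (actin cytoskeleton, translation factors, proteasome, nuclear-encoded respiratory chain) and more of transcripts read at the endoplasmic reticulum (ER): secreted, lysosomal, membrane and ER-resident proteins.

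The study profiled brain myeloid cells by droplet 3′ single-cell RNA sequencing to ask how tissue processing alters their transcriptome. The 4 libraries here formed 1 group, replicates 1 to 4, each from the cortex and hippocampus of a male C57BL/6J mouse aged 90 days. All 4 mice carried PBS given by the tail vein, labelled as 24 h before sacrifice, and all tissue was dissociated by cold Dounce homogenization and sorted for CD45 and CD11b, so no untreated mouse and no other dissociation enters the comparisons below. According to the study's notes, the sorter clogged during the final mouse, whose cells were put back on ice and then sorted anew, with more time at room temperature. The labels do not say which library this was, so that mouse cannot be assigned to a replicate here. The comparisons are between cells of the same mouse, and the mouse is the replicate (n = 4).

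Messenger RNAs are not spread evenly in a cell. Those for secreted, lysosomal and membrane proteins encode a hydrophobic stretch, often a signal peptide at the start, which the signal recognition particle binds as it leaves the ribosome, so that ribosome and mRNA are carried to the ER membrane. Those for cytosolic proteins are read on free ribosomes. Ribosomal protein mRNAs belong to the second kind and share a pyrimidine tract at their 5′ end that couples their translation to growth signals. Microglia, the resident macrophages of the brain, are rich in the first kind, with Cst3 and the C1q genes among their most abundant transcripts.

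The starts of 6 coding sequences illustrate a hydrophobic stretch near the start of the protein, which is part of the classes of transcripts used here. Each is the first 105 bases of the open reading frame, with the 11 most hydrophobic codons of the first 35 in capitals where their mean hydropathy on the Kyte-Doolittle scale reached 2. The first 3 come from genes read at the ER and the others from genes read in the cytosol, which have no such stretch and no capitals. They were read from the GENCODE M21 transcripts of GRCm38, the build of the files.
Cst3: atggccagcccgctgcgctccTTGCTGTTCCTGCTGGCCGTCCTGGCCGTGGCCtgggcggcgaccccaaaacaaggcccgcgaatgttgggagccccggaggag
Pros1: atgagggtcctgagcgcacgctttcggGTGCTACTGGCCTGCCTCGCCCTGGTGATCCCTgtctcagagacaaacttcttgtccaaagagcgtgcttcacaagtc
Erlec1: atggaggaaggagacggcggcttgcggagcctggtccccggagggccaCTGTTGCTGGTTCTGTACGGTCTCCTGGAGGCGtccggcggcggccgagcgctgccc
Tmsb4x: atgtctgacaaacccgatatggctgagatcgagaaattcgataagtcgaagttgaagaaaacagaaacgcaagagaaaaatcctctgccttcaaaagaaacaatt
Eef1a1: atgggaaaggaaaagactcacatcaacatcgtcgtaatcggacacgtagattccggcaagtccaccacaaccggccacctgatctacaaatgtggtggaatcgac
Fau: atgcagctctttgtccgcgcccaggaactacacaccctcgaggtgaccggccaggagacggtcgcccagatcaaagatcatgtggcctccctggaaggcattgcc
Cst3 encodes the secreted protease inhibitor cystatin C and lies at chr2:148871722-148875692. Pros1, the secreted anticoagulant protein S, lies at chr16:62854307-62929346. Erlec1, an ER lectin of protein quality control, lies at chr11:30930774-30954335. Tmsb4x, the actin monomer-binding thymosin beta 4, lies at chrX:167207093-167209315. Eef1a1, the elongation factor that brings aminoacyl-tRNA to the ribosome, lies at chr9:78478449-78489151. Fau, which encodes a ribosomal protein of the small subunit fused to a ubiquitin-like protein, lies at chr19:6057844-6059524 and falls outside the rule because of its name.

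Ribosome-poor cells made up 1.57% of kept cells in replicate 1 (56 of 3576 cells, exact 95% binomial interval 1.19% to 2.03%), 0.840% in replicate 2 (31 of 3692, 0.571% to 1.19%), 1.82% in replicate 3 (47 of 2576, 1.34% to 2.42%) and 1.68% in replicate 4 (53 of 3158, 1.26% to 2.19%). Replicate 2 had the lowest share, and its interval did not reach that of replicates 3 and 4. The mean was 1.48% ± 0.438 (SD, n = 4). Intervals cover counting error only. The libraries held 2619 to 3703 barcodes, 13138 in all. Of the 136 barcodes that failed the limits on genes and mitochondrial UMIs, 83 were also below 3%, and 79 of these had fewer than 400 genes, so the limit on genes removed further cells of this kind. Of the kept barcodes, 81 occurred in 2 or more libraries, 3 of them on ribosome-poor cells, and none was ribosome-poor in 2 libraries. Doublets were not removed.

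The 187 cells formed a separate low mode. Counting cells by their share of UMIs in the rule genes, 9 cells lay below 1%, 124 between 1% and 2%, 54 between 2% and 3%, and 103 between 3% and 4%, after which the counts rose to 458, 1370 and 5314 cells in the bands up to 5%, 6% and 8%. Within the 187 cells the share ran from 0.428% to 2.99% with a median of 1.74%. Just inside the threshold, the 18 cells of 2.5% to 3% had a median ER-targeted share (defined below) of 30.4% and a median cytosolic share of 3.77%. Just outside, the 26 cells of 3% to 3.5% had 27.5% and 5.05%. These counts describe the rule, and no test was made on them. The 67 rule genes with at least 100 UMIs in matched comparison cells were all lower per UMI, by a median log2 ratio of -1.94, from -2.82 for Rps28 to -1.03 for Rpl18.

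**Figure D1:**
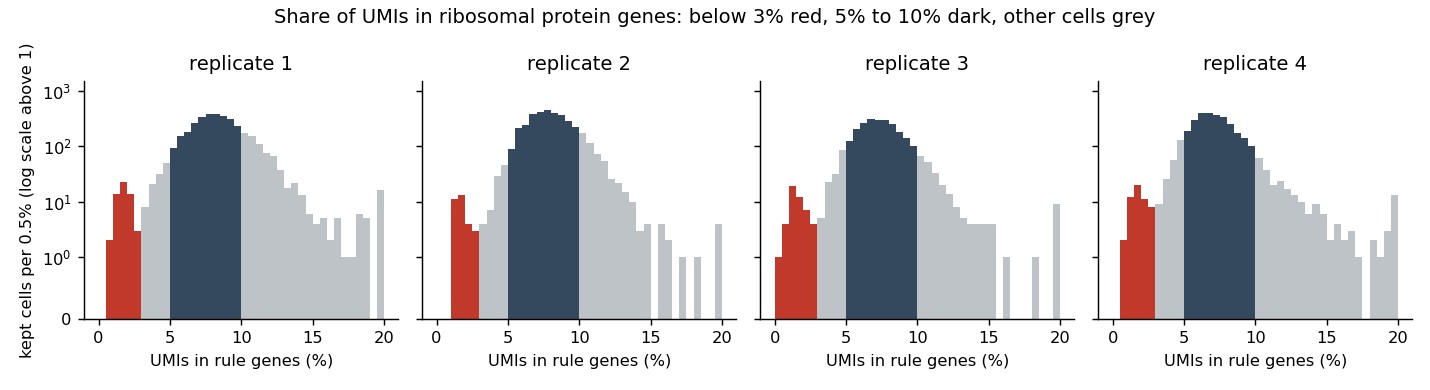
Number of kept cells in each library (log scale above 1) by the share of all UMIs in the 109 rule genes, in steps of 0.5%, with cells above 20% in the last bar. In each of the 4 libraries the red bars, 187 cells below 3% in all, form a hump apart from the main one, which holds the comparison cells of 5% to 10% (dark).

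All 187 cells carried UMIs of at least 3 of 18 microglia markers. Their summed microglia marker level was 13.7%, 14.2%, 13.6% and 13.1% of UMIs in replicates 1 to 4, against 9.38%, 8.63%, 8.77% and 9.14% in matched comparison cells. All 18 of those markers encode proteins with a hydrophobic segment. Markers of neutrophils, T and NK cells, dendritic cells, astrocytes, neurons, endothelial cells, erythroid cells and dividing cells were at 0 UMIs in both sets of cells. Macrophage markers held 6 UMIs and monocyte markers 2 UMIs over the 187 cells, against 3 and 2 in the comparison cells. Oligodendrocyte markers held 14 UMIs against 20, and B cell markers 17 against 15. The cells were thus microglia by these markers.

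Ribosome-poor cells were shallow. Their median UMIs per cell were 950, 1233, 1095 and 1138 in replicates 1 to 4, against 1899, 2924, 2221 and 2845 over all comparison cells, a ratio of 2.22 ± 0.25 (SD, n = 4), and 70 of the 187 had fewer than 1000 UMIs. Each ribosome-poor cell was therefore paired with a different comparison cell of the same library whose total UMIs lay within 10%. All 187 found a partner, and the partners' medians were 986, 1237, 1092 and 1142 UMIs. At equal depth, with each cell thinned to 600 UMIs, ribosome-poor cells showed 344, 341, 336 and 332 genes against 406.5, 413, 406 and 410 in the partners. Before thinning the medians were 482, 609, 523 and 554 genes against 613.5, 739, 688 and 709. Both counts include the rule genes, which held a mean of 1.78% of UMIs in ribosome-poor cells and 7.18% in the partners. The rule itself thus bears on these gene counts, and genes outside it were not counted alone. Outside the rule genes, the 20 most abundant genes of each cell took a median of 37.4% to 38.9% of UMIs in ribosome-poor cells. In the partners the library medians were 27.7% to 29.5%.

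For the comparisons below, UMIs of all cells of a set were summed per library, the 109 rule genes were left out of both the counts and the totals, and levels are given as counts per 1000000 UMIs outside these genes (CPM). The sums held 38964 to 64322 UMIs, so that 3 UMIs correspond to 46.6 to 77.0 CPM. ER-targeted transcripts are 154 genes of 4 lists (secreted and lysosomal lumen, membrane receptors, lysosomal membrane, ER). Cytosolic transcripts are 126 genes of 5 lists (translation, glycolysis, actin, proteasome, other cytosolic). Sums are relative, and fewer transcripts of one kind cannot be told apart in them from more of another.

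ER-targeted transcripts made up 38.1%, 39.0%, 38.5% and 37.6% of the UMIs in ribosome-poor cells of replicates 1 to 4, against 25.7%, 25.1%, 24.9% and 26.6% in their partners. Cytosolic transcripts made up 2.76%, 2.85%, 2.46% and 3.11%, against 6.22%, 7.03%, 6.64% and 7.10%. The sets did not overlap in either measure. The mean log2 ratio was 0.58 ± 0.07 (SD, n = 4) for ER-targeted transcripts and -1.27 ± 0.12 for cytosolic ones, each with its sign in 4 of 4 libraries. By an exact two-sided sign-flip permutation test over libraries both had p = 0.125, the smallest value 4 pairs allow, so that this test could not reach 0.05. The cells and gene lists were chosen with earlier results of these data known. The test and the lack of overlap are thus a description and no independent support. The ER-targeted lists also hold 4 genes picked as markers on these data. Without them the mean log2 ratio was 0.58 ± 0.07.

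Cell by cell, the ER-targeted share exceeded the 95th percentile of the partners of the same library in 156 of 187 ribosome-poor cells and their median in 177. The cytosolic share lay below the partners' 5th percentile in 179 cells and below their median in 187. Among the 187 cells the ER-targeted share ran from 7.51% to 57.8%, with quartiles of 34.0% and 43.7% around a median of 39.3%. The cytosolic share ran from 1.05% to 6.21%, with quartiles of 2.08% and 3.26% around 2.58%. The median ER-targeted share was 40.3% in the 70 cells under 1000 UMIs and 38.5% in the other 117 cells.

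The ER-targeted share differed at the low mode and changed little between 3% and 15%. In bands of the rule-gene share, the mean over libraries of the median ER-targeted share was 40.7%, 40.3% and 35.4% in the bands below 1%, 1% to 2% and 2% to 3%. It was 26.5% at 3% to 4%, 26.8% at 5% to 6% and 26.4% at 8% to 10%. The cytosolic share was 2.22%, 2.46% and 2.82% in the 3 lowest bands, 5.55% at 3% to 4% and 7.40% at 8% to 10%. It therefore kept falling with the rule-gene share above the threshold too, where the ER-targeted share stayed flat up to 10%. In the 103 cells at 15% and above, the ER-targeted share was 18.1% and the cytosolic share 10.7%. The bands were not matched for depth. Their mean of median UMIs was 1052.5 to 1236.5 in the 3 lowest bands, 1731 at 3% to 4% and 2588 at 8% to 10%. Cells of a library share depth and capture, and these are descriptions.

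**Figure D2:**
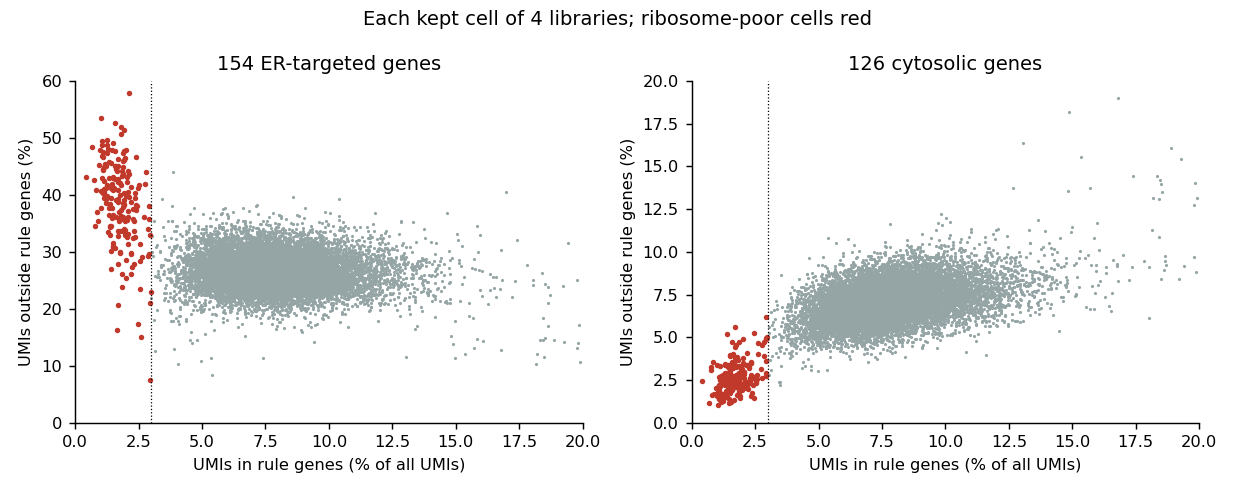
Each point is a kept cell of the 4 libraries; the x axis is its share of all UMIs in the rule genes and the y axis the share of its other UMIs in 154 ER-targeted genes (left) or 126 cytosolic genes (right), both in percent. The 187 ribosome-poor cells (red, left of the dotted line at 3%) have a median ER-targeted share of 39.3% and a median cytosolic share of 2.58%.

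Counted as UMIs per cell and not as shares, ribosome-poor cells held fewer transcripts of both kinds than the bulk of comparison cells. The median ER-targeted UMIs per cell were 359, 475, 401 and 432 in ribosome-poor cells and 454, 724, 549 and 687 in all comparison cells of the same libraries, a ratio of 1.44 ± 0.148 (SD, n = 4) between the latter and the former. The median cytosolic UMIs per cell were 25, 32, 26 and 31 against 121, 199, 142 and 186, a ratio of 5.63 ± 0.615. Malat1, a nuclear noncoding RNA, had median UMIs of 65, 75, 92 and 72 against 112, 160, 126 and 152, a ratio of 1.83 ± 0.363. The ratio for cytosolic UMIs was above the other 2 in each of the 4 libraries. Fewer transcripts in a cell and poorer capture of them cannot be told apart in these counts.

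The 6 ribosomal protein genes that the rule missed by their names were all lower. Their summed level was 1491, 1698, 1382 and 1555 CPM in ribosome-poor cells and 6316, 6468, 6498 and 6320 CPM in the partners, a mean log2 ratio of -2.07 ± 0.13 (SD, n = 4, exact permutation p = 0.125). Rplp1, an acidic protein of the ribosomal stalk, was at 320, 558, 486 and 342 CPM against 1482, 2053, 1718 and 1785 CPM, and Fau at 391, 461, 318 and 435 CPM against 1815, 1617, 1896 and 1310 CPM. The log2 fold changes were -2.07 (SE 0.17) for Rplp1, -2.03 (SE 0.17) for Fau, -2.0 (SE 0.20) for Rplp0 and -2.13 (SE 0.20) for Rplp2, with edgeR adjusted p = 8.53e-31, 5.48e-29, 1.52e-21 and 1.85e-22. Rpsa, a small-subunit protein, had a log2 fold change of -1.71. The groups did not overlap in any of these 5 genes. The cells were chosen for few transcripts of genes of the same kind, so these p-values are no independent support.

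Gene by gene, edgeR's quasi-likelihood test with the library as a block was run on 5624 genes with a mean of at least 20 CPM, and a gene was called at a Benjamini-Hochberg adjusted p below 0.05 and a log2 fold change beyond 0.58. It called 130 genes higher in ribosome-poor cells (2.31% of those tested) and 441 lower (7.84%). The median log2 fold change over all genes was -0.38. Scaling by TMM, which assumes that most genes do not change, moved that median to -0.12 and the calls to 278 higher and 220 lower, so that the balance of higher against lower calls depends on the scaling. All 130 genes called higher and 220 of the 441 called lower kept their call under TMM. Since TMM shifted values upwards, these counts do not show that the higher calls are firmer than the lower ones.

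The direction of a gene went with the kind of protein it encodes. Each tested gene was classed by its translated coding sequence: 1872 genes had a hydrophobic segment (a window of 11 residues with mean hydropathy of at least 2 within the first 35, or a window of 19 residues of at least 1.6 anywhere), 3447 had none, 203 encoded mitochondrial proteins by name and for 102 no coding sequence beginning with ATG was read from the annotation, among them mt-Nd1, mt-Nd2, mt-Nd3 and mt-Nd5, which are protein-coding genes of the mitochondrial genome. Of the genes with a hydrophobic segment 117 were called higher and 43 lower, and their median log2 fold change was 0.21. Of those without, 5 were called higher and 348 lower, with a median of -0.64. Under TMM the medians were 0.48 and -0.38, and the calls 251 higher and 17 lower against 17 higher and 171 lower. Where both windows were present, the window of 19 residues anywhere in the protein, 72 of 710 genes were called higher and 5 lower. A window of 19 residues alone gave 37 higher and 33 lower of 1045 (median 0.01). The window near the start alone gave 8 higher and 5 lower of 117 (6.84% and 4.27%), with a median of -0.07. Genes with no hydrophobic segment had 0.145% called higher and 10.1% lower, with a median of -0.64.

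The 130 genes called higher comprised the 117 with a hydrophobic segment, 8 genes of the mitochondrial genome and 5 others. Of these 5, 4 are described here, chosen after their values were seen: Ctss (log2 fold change 0.69), Grn (0.66), Serpine2 (0.58) and Sep15 (0.62). Ctss encodes the lysosomal protease cathepsin S, Grn the secreted and lysosomal progranulin, Serpine2 a secreted protease inhibitor and Sep15 a selenoprotein of the ER. Each of these 4 proteins enters the ER, although its sequence did not reach the hydropathy limit. The class errs in the other direction too. By this measure 5 of 12 genes of the glycolysis list and 4 of 24 of the actin list had a hydrophobic segment. Ldhb of the glycolysis list (-1.10) was among the 43 genes of the class called lower. Ctss and Grn kept their call with each library left out in turn. The call of Serpine2 was lost without replicate 2 or 3 and that of Sep15 without replicate 1, 2 or 3.

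**Figure D3:**
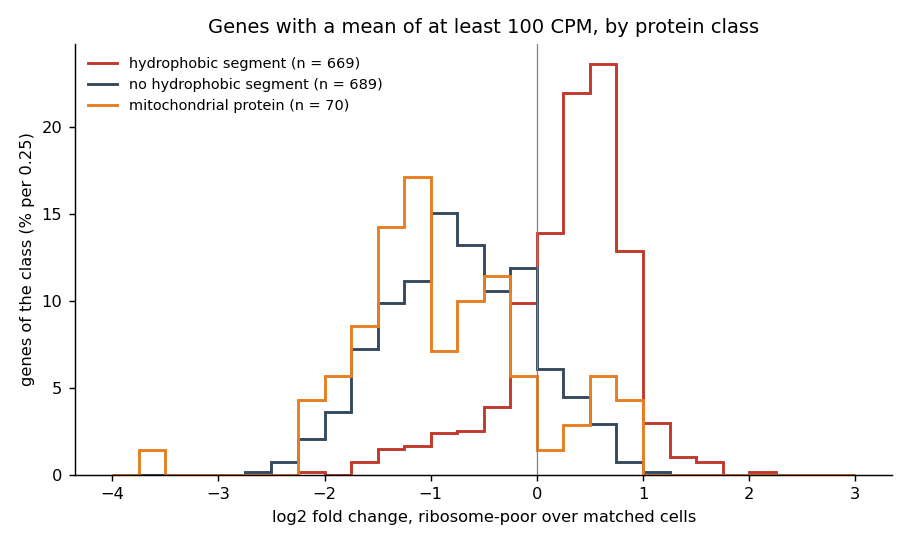
Distribution of log2 fold changes (ribosome-poor over matched comparison cells) of the tested genes with a mean of at least 100 CPM, as percent of each class per step of 0.25. The 669 genes with a hydrophobic segment centre on a median of 0.41, the 689 without one on -0.75 and the 70 of mitochondrial proteins on -1.01, with a small second hump above 0 that holds genes of the mitochondrial genome.

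Among genes without a hydrophobic segment, the shorter the protein, the lower the transcript. Splitting the coding lengths of both classes at 312 and 546 residues, the median log2 fold change was -0.98 in the short, -0.67 in the middle and -0.34 in the long band, with 224 of 1212, 102 of 1118 and 22 of 1117 genes called lower. Their median levels were 53.7, 46.2 and 44.6 CPM. Across the 3447 genes, which are not independent replicates, Spearman's rho between protein length and log2 fold change was 0.34. With a hydrophobic segment the medians were 0.29, 0.28 and 0.08, and rho was -0.03 over 1872 genes.

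Over all tested genes 2.31% were called higher, and 8.26% of those with a mean of at least 100 CPM. Among ER-targeted lists, secreted and lysosomal lumen proteins had 17 of 32 tested genes called higher and none lower, with a median log2 fold change of 0.58 (0.87 under TMM). Cst3 was at 80882, 83069, 95814 and 85616 CPM in ribosome-poor cells against 52656, 54923, 60906 and 63892 CPM in their partners, without overlap, a log2 fold change of 0.57 (SE 0.07) that stayed under the 0.58 limit. C1qa, a chain of complement C1q, rose by 0.77 (SE 0.08, edgeR adjusted p = 7.90e-21), and Ctsd, the lysosomal protease cathepsin D, by 0.72 (SE 0.08, adjusted p = 4.84e-18), both higher in 4 of 4 libraries.

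Membrane receptors had 9 of 44 genes called higher and none lower, with a median of 0.40. Cd81, a tetraspanin, had a log2 fold change of 0.59 (SE 0.09), a call that was lost without replicate 2 or 3. P2ry12, the purinergic receptor that steers microglial processes, was at 8220, 8828, 9191 and 9297 CPM against 5797, 5980, 6458 and 6206 CPM, without overlap and with a log2 fold change of 0.54 that did not reach the limit. Csf1r, the receptor for the survival factors of microglia, gave 0.58 (SE 0.09, below the limit before rounding). Cx3cr1, the fractalkine receptor, was at 3941, 4147, 3493 and 3249 CPM against 3593, 3259, 3910 and 3602 CPM, and these groups overlapped (log2 fold change 0.03, SE 0.10, edgeR adjusted p = 0.913). Under TMM its value was 0.31. Tmem119, a microglia-restricted membrane protein, gave 0.35 (SE 0.10), with overlapping groups.

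Lysosomal membrane proteins had 6 of 18 genes called higher and none lower (median 0.52), among them Lamp1 with 0.65 (SE 0.13). The ER list had 15 of 52 genes called higher and 1 lower (median 0.59). Calr, the calcium-binding chaperone calreticulin, was at 1687, 2353, 1644 and 1897 CPM against 982, 1181, 592 and 950 CPM, and Hspa5, the ER chaperone BiP, at 2201, 1916, 1420 and 1803 CPM against 1334, 924, 750 and 786 CPM. Neither pair of groups overlapped, and the log2 fold changes were 1.03 and 0.96 (SE 0.14 each, edgeR adjusted p = 1.28e-10 and 3.55e-09). Hsp90b1 gave 0.83 and the disulfide isomerase Pdia3 0.61, whose call was lost without replicate 1.

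The 4 genes Pros1, Atp2a2, Ccdc47 and Erlec1 had been picked as markers of these cells on these data, and their values are a description. Pros1 stood at 692, 631, 766 and 700 CPM in ribosome-poor cells against 426, 231, 375 and 246 CPM, without overlap. Ccdc47, a subunit of the ER insertase machinery, stood at 160, 218, 243 and 404 CPM against 74.1, 180, 59.2 and 196 CPM. Erlec1 stood at 71.0, 194, 280 and 155 CPM against 55.6, 103, 59.2 and 65.5 CPM. Atp2a2, the calcium pump of the ER, rested on 19 UMIs against 11. In each gene but Pros1 the groups overlapped, although all 4 were higher in 4 of 4 libraries. Leaving these genes out, the ER list had 13 genes called higher and the 4 ER-targeted lists together 44, against 47 with them.

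Not every ER protein was on the higher side. In the ER list the 1 gene called lower was Ost4, a very small subunit of the oligosaccharyltransferase (log2 fold change -2.09, edgeR adjusted p = 0.000179). Sec61b gave -1.18 and did not pass (adjusted p = 0.0567). Both encode short proteins with a single membrane segment. Proteins whose only membrane segment lies at the very end leave the ribosome before that segment can be recognized and reach the membrane afterwards. A list of 21 such tail-anchored proteins was put together after these values had been seen, and it is described without a test. Of its 19 tested genes none was called higher and 6 lower (2 under TMM), with a median of -0.89. Across all tested genes 7.84% were called lower, and 21.6% of those with a mean of at least 100 CPM. Under TMM 173 of these 1452 more abundant genes were called lower, and no share is read from so few tail-anchored genes. The summed level of the tail-anchored list was 1686, 1116, 1644 and 1632 CPM in ribosome-poor cells against 2741, 2926, 3180 and 2947 CPM. The 6 called lower were Vamp4 (-2.27), Vamp8 (-1.68) and Vapa (-1.57) of vesicle traffic, Ube2j1 (-1.43) and Serp1 (-1.29) of ER quality control and Cyb5a (-1.16), cytochrome b5. Vamp8 and Vapa kept their call under TMM and with each library left out, as did Ost4. The call of Serp1 was lost without replicate 3, that of Vamp4 without replicate 1, 2 or 4, and those of Ube2j1 and Cyb5a without any 1 of the 4. Sec61g (0.05) and Sec22b (0.11) lay near 0. Genes outside both lists were also among the 43 genes with a hydrophobic segment called lower, such as Slc39a1 (-1.98), Jtb (-1.35) and Cd52 (-1.16). Whether the route of a protein to the membrane bears on these levels was not tested.

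The factors that bring nascent proteins to the ER are themselves cytosolic. Of the 8 tested, 2 were called lower, beside 7.84% of all tested genes and 21.6% of those with a mean of at least 100 CPM, and no share is read from so few genes. They were Srp9 (log2 fold change -1.63) and Srp14 (-1.51), a pair that binds the Alu end of the signal recognition particle RNA. The call of Srp14 was lost without replicate 3 and under TMM. Of 10 genes of the unfolded protein and integrated stress response, 1 was called higher. Beside this, 2.31% of all tested genes were called higher, and 8.26% of those with a mean of at least 100 CPM. No result about this response is read from that count. The gene was Dnajb9, an ER co-chaperone, at 320, 340, 262 and 264 CPM against 55.6, 103, 59.2 and 131 CPM (log2 fold change 1.71, SE 0.36, edgeR adjusted p = 8.06e-05). The summed list was higher in 4 of 4 libraries (mean log2 ratio 0.44 ± 0.28 SD). Xbp1, a transcription factor of this response, gave 0.52 and Herpud1 0.15, and neither passed (adjusted p = 0.157 and 0.813). Atf4 (-0.05) and Ddit3 (-0.76), which follow translational arrest, were not called either.

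**Figure D4:**
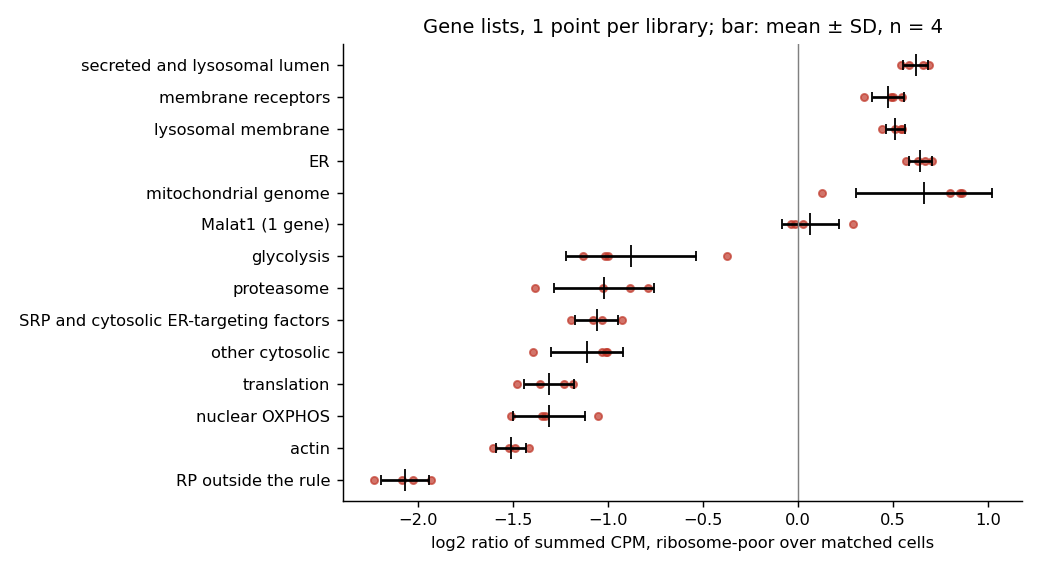
Log2 ratio of the summed level of each gene list in ribosome-poor over matched comparison cells; each point is a library, and the bar gives the mean ± SD (n = 4). The 4 ER-targeted lists lie above 0 in all libraries (means 0.47 to 0.65) and the cytosolic lists below it, down to -2.07 for the ribosomal protein genes outside the rule.

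Of the 5 cytosolic lists, none had a gene called higher, and 66 of 122 tested genes were called lower, with a median of -1.10. Under TMM 46 were lower and the median was -0.82. Over all tested genes 7.84% were called lower, and 21.6% of those with a mean of at least 100 CPM. Actin cytoskeleton genes had 17 of 22 lower. Tmsb4x was at 3249, 3735, 3288 and 3964 CPM in ribosome-poor cells against 11076, 13705, 11316 and 13754 CPM, and Actb, beta-actin, at 1811, 1868, 1607 and 2487 CPM against 4538, 6647, 7505 and 8711 CPM. The groups lay far apart, with log2 fold changes of -1.80 (SE 0.09) and -1.80 (SE 0.10, edgeR adjusted p = 1.12e-84 and 3.10e-63). Profilin, Pfn1, gave -1.80 and the capping protein gene Capza2 -1.18.

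Translation factors had 16 of 24 genes called lower, with a median of -1.33. Eef1a1 was at 994, 485, 616 and 560 CPM against 1889, 2207, 1521 and 1932 CPM (log2 fold change -1.48, SE 0.15). Eif1, which helps select the start codon, gave -1.49 and Tpt1, a growth-linked protein whose mRNA also carries a 5′ pyrimidine tract, -1.83. The helicase gene Eif4a1 gave -0.49 and did not pass (edgeR adjusted p = 0.101). Glycolysis had 2 of 11 lower (Ldhb -1.10, Gapdh -1.35), beside 21.6% of all tested genes with a mean of at least 100 CPM. No result about glycolysis is read from that count. The proteasome had 12 of 31 lower. Among proteasome genes Psmc3 gave -1.52, while Psma3, the most abundant of them, was at 195, 170, 411 and 295 CPM against 296, 257, 237 and 262 CPM, with overlap. The other cytosolic genes had 19 of 34 lower, with the ferritin chains Fth1 at -1.36 (SE 0.13) and Ftl1 at -1.63 (SE 0.14). The chaperone Hspa8 gave -0.68, a call lost under TMM.

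Of 12 tested genes of ribosome biogenesis, a nucleolar process, none was called in either direction (median -0.53). The summed level was 355, 509, 710 and 669 CPM against 759, 693, 1047 and 1015 CPM, lower in 4 of 4 libraries. Of 7 snoRNA host genes 1 could be tested, Snhg12, which gave -2.10 and did not pass (edgeR adjusted p = 0.258).

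The respiratory chain split by genome. Of 41 nuclear-encoded subunits, whose proteins are made in the cytosol and imported into mitochondria, 25 were called lower and none higher (median -1.35), with Cox7c at -2.22 (SE 0.33) and Cox4i1 at -1.18 (SE 0.24). Ndufa13 gave 0.09 with overlapping groups. Of 12 tested genes of the mitochondrial genome, transcribed and translated inside the organelle, 8 were called higher and none lower (median 0.68). Under TMM 15 of the nuclear-encoded genes were called lower and 9 of the mitochondrial genome higher. Over all tested genes 7.84% were called lower and 2.31% higher. Among those with a mean of at least 100 CPM the shares were 21.6% and 8.26%. The 13 genes together made up 2.36%, 1.65%, 2.00% and 2.23% of UMIs outside the rule genes against 1.36%, 1.51%, 1.10% and 1.22%, a mean log2 ratio of 0.66 ± 0.36 (SD, n = 4, exact permutation p = 0.125). Replicate 2 stood apart with a ratio of 0.13, and without it the mean was 0.84. mt-Atp6 gave 0.79 (SE 0.11) and mt-Cytb 0.72 (SE 0.12). mt-Co3, at 0.67, fell under the limit without replicate 4.

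Of 4 tested nuclear noncoding RNAs none was called. Malat1 made up 7.67%, 7.08%, 7.91% and 6.83% of UMIs outside the rule genes in ribosome-poor cells and 7.88%, 7.16%, 7.76% and 5.59% in the partners. The groups overlapped, and 2 of 4 libraries were higher (mean log2 ratio 0.07 ± 0.15, exact permutation p = 0.75). Without replicate 4 the mean was -0.01. Against all comparison cells, not matched for depth, it was 0.29 ± 0.07 and higher in 4 of 4 libraries. The edgeR log2 fold change of Malat1 was 0.07 (SE 0.07, adjusted p = 0.647) and became 0.34 under TMM. Kcnq1ot1 (0.13) and Neat1 (0.36), the other nuclear RNAs with a mean above 50 CPM, were not called (adjusted p = 0.914 and 0.815).

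The transcripts by which the study names ex vivo activated microglia were lower or not called in ribosome-poor cells. Of 13 tested genes of that list, 5 were called lower and none higher, with a median of -0.60. Under TMM 2 were lower and the median was -0.31. Beside this, 7.84% of all tested genes were called lower, and 21.6% of those with a mean of at least 100 CPM. The list has 25 genes, of which 22 had no hydrophobic segment, a class with a median of -0.64 (-0.38 under TMM). The summed level of the list was 1527, 1722, 1569 and 2721 CPM against 2871, 3336, 2903 and 4568 CPM. Replicate 4 was the highest in both sets, and the sum was lower in ribosome-poor cells in each of the 4 libraries. The part of the interrupted sort in these levels was not tested. Jun, an immediate early transcription factor, was at 53.3, 170, 74.7 and 264 CPM against 389, 411, 415 and 524 CPM (log2 fold change -1.61, SE 0.29). Fos rested on 7 UMIs against 6, all in replicate 4. The small GTPase gene Rhob gave -0.78, a call lost under TMM.

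The genes with the largest differences were mostly of low level, and their calls were less firm. Of the 15 largest called increases among genes with a mean of at least 50 CPM and the same sign in all libraries, Nptn (a synaptic and immunoglobulin-like membrane protein, log2 fold change 1.42) and Dnajb9 kept their call in every fit with 1 library left out, and the other 13 lost it in at least 1. Apoe, the secreted lipid carrier, was at 408, 243, 187 and 3140 CPM against 204, 128, 158 and 491 CPM. Of its 202 UMIs in replicate 4, 95 came from 1 cell, which held 209 microglia marker UMIs and 0 macrophage marker UMIs. Without replicate 4 its log2 fold change of 2.00 became 0.76 and did not pass (edgeR adjusted p = 0.233). Of the 15 largest called decreases, 7 kept their call in each such fit, among them Ppp1r18, a phosphatase regulator at 8 UMIs against 45 (log2 fold change -2.49).

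**Figure D5:**
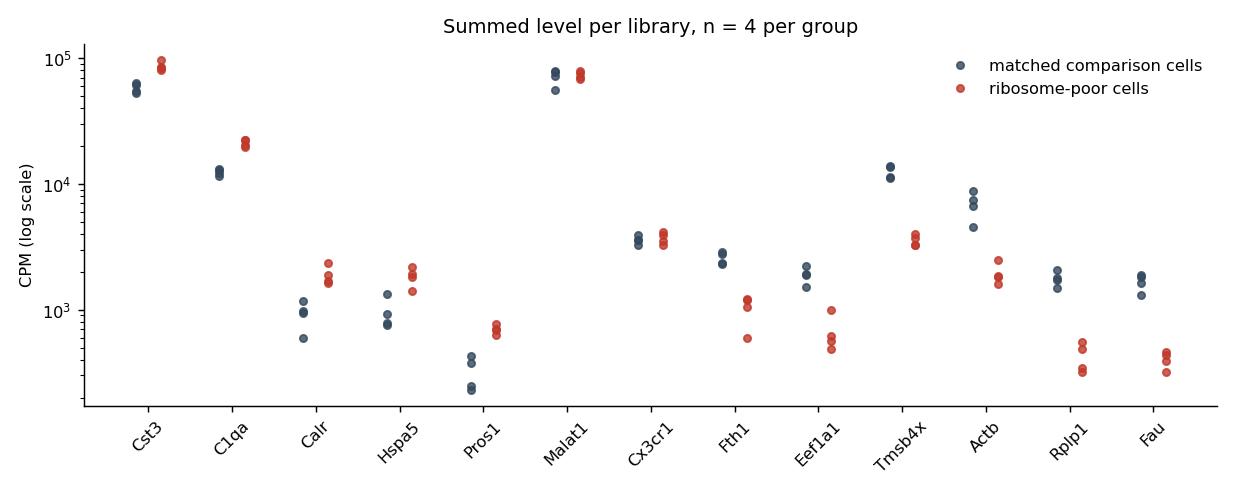
Summed level in CPM (log scale) of 13 genes in ribosome-poor (red) and matched comparison cells (dark), 1 point per library and n = 4 in each set. The 2 sets separate upwards for Cst3, C1qa, Calr, Hspa5 and Pros1, downwards for Fth1, Eef1a1, Tmsb4x, Actb, Rplp1 and Fau, and overlap for Malat1 and Cx3cr1.

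Cells were also chosen and measured on separate UMIs. Each cell's UMIs were split at random into 2 parts, one of which chose and paired the cells while the other gave the values. The mean log2 ratio was then 0.57 ± 0.08 (SD, n = 4) for ER-targeted transcripts, -1.26 ± 0.08 for cytosolic ones, -1.98 ± 0.15 for the ribosomal protein genes outside the rule and 0.72 ± 0.27 for the mitochondrial genome. Each kept its sign in 4 of 4 libraries. With fewer UMIs behind each gene, 61 genes were called higher and 132 lower.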

How the data were processed

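Single-cell libraries of 4 mice (10x 3′ chemistry, version 2) had been aligned and counted by the authors with Cell Ranger 2.2.0 on mm10 (GRCm38), and the deposited matrices hold raw UMI counts of 28692 genes per cell, not normalized. Cells were filtered, chosen and paired as described above. The members and gene lists were chosen with earlier results of these data known. Summed counts were tested in edgeR 4.0.16 (R 4.3.3) without further scaling, with the library as a block because both sums come from the same mouse; deviations from the group means correlated by 0.00 to 0.05 between the 2 sums of a library. The fit was tested on simulated data. Named genes were the 4 markers, the 15 largest and smallest called changes of at least 50 CPM with one sign, the 4 most abundant genes of each list and a set of landmark genes. Protein classes came from GENCODE M21 coding sequences, with 28339 of 28692 genes matched. Every row of the matrices named a gene. Alternatives included TMM, DESeq2 1.42.0, other filters, matchings and thresholds, and each library left out. A few genes that the rule names are not reported here.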

Additional observations from a re-analysis of the deposited data

Results flagged for a closer look

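In each of 111 values, the 4 libraries were compared for 1 that lay far from the other 3, by Dixon's ratio of the gap to the whole range. Chance alone places about 1 in 20 such values past the 95% limit for 4 values, and 6 of the 111 were past it. The log2 ratio of the other cytosolic list was lowest in replicate 3 (-1.39 against -1.03 to -1.0, ratio 0.923). The log2 ratio of the mitochondrial genome was lowest in replicate 2 (0.13 against 0.80 to 0.86, ratio 0.915). The level of lysosomal membrane transcripts in ribosome-poor cells was highest in replicate 2 (16808 CPM against 14210 to 14522 CPM, ratio 0.88), and that of the tail-anchored list was lowest there (1116 CPM against 1632 to 1686 CPM, ratio 0.905). Replicate 2 also gave the fewest ribosome-poor cells, 31. The level of the ex vivo activation list was highest in replicate 4 (2721 CPM against 1527 to 1722 CPM, ratio 0.836). The log2 ratio of Fos, with 20 CPM added to both levels, was 0.12 in replicate 4 and 0 in the others, where Fos had no UMI (ratio 1).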

How the results depend on the processing

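The log2 ratios of ER-targeted, cytosolic, outside-rule ribosomal protein and mitochondrial transcripts kept their direction in all 4 libraries against unmatched cells, matched on UMIs outside the rule genes, with split UMIs, without cells with macrophage or monocyte markers, with no minimum of genes and for cells below 2%; the other thresholds and filters were run for the share of cells alone. ER-targeted values ran from 0.43 (all genes with a hydrophobic segment, whose class was to come from RefSeq proteins and was read from GENCODE instead) to 0.66 (cells below 2%). Cytosolic values ran from -1.41 (cells below 2%) to -0.67 (all genes without a hydrophobic segment). Without 1 replicate ER-targeted values ran from 0.57 to 0.61, cytosolic ones from -1.31 to -1.22, ribosomal protein genes from -2.11 to -2.01, mitochondrial ones from 0.60 to 0.84 and Malat1 from -0.01 to 0.10, reversed without replicate 4 (-0.0083). Against all comparison cells Malat1 was at 0.29, higher in 4 of 4 libraries. The counts of genes called depended more on the setting: 278 higher and 220 lower under TMM, 254 and 252 under DESeq2 size factors, 110 and 61 by the DESeq2 test (which left 4797 adjusted p undefined), 204 and 918 against all comparison cells without matching, and 61 and 132 with split UMIs. Without 1 replicate they ran from 90 to 103 higher and from 285 to 313 lower. Without the library block 124 were higher and 482 lower. A minimum of 10 UMIs kept fewer genes (5255) than 20 CPM; testing all 10520 genes with a UMI, added after seeing the data, gave 95 and 331. Of 71 named genes called, 1 reversed under any fit, Fcrl1 with split UMIs (-0.35). The share of ribosome-poor cells was 2.30% with a limit of 4%, 0.969% with cells thinned to 1000 UMIs and 0.0394% with at least 1000 genes per cell, which left cells in replicates 2 and 4 alone, so the ratios were not run there. With no minimum of genes, added after seeing the data, it was 2.07%, and without 1 replicate 1.36% to 1.69%. Depth limits single genes: below 46.6 to 77.0 CPM a sum held under 3 UMIs.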
